A study of Mus musculus with 2 samples.

Results

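The genes described here are the tropomyosins Tpm1, Tpm2, Tpm3 and Tpm4, the tropomodulins Tmod1, Tmod2 and Tmod3, and the leiomodins Lmod2 and Lmod3. They were chosen by name as the proteins that lie along the actin filament of the sarcomere and those that bind its pointed end, and are 9 of the 55536 annotated genes of the study. Total RNA was sequenced from heart tissue of 2 female mice of strain B6CASTF1/J, the F1 offspring of C57BL/6J and CAST/EiJ, at 4 days of age. The labels name no treatment and no other group, so the data give levels and differences between these 2 hearts, and no contrast between conditions. The hearts carry separate biological replicate numbers but 1 donor identifier, so that they are separate animals rests on those numbers. Each library was quantified in 2 ways, called the first and the second quantification below, both on mm10 with GENCODE M21. Levels are in TPM, which allows for transcript length and sequencing depth, and are from the first quantification unless stated.

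Tropomyosin is a coiled coil that polymerises head to tail along the actin filament, and in striated muscle it moves with troponin to open or close the myosin binding sites. Tropomyosin genes can make several proteins by choosing among alternative promoters and exons, so the gene name alone does not say which protein is made. In the annotation used here Tpm4 is the exception, with 1 coding transcript. Long forms start with exon 1a and include the muscle proteins as well as forms of other cells, while short forms start with exon 1b and serve the cytoskeleton of most cells. Tropomodulins cap the pointed end of the filament and bind tropomyosin there. Leiomodins are relatives of tropomodulin with further actin binding sites, which nucleate actin and let thin filaments grow at that end.

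Expected counts summed to 36175363 in replicate 1 and 32509660 in replicate 2. Of 12 cardiomyocyte markers, all were above 1 TPM in both hearts, with a summed level of 37534 and 38034 TPM. Skeletal muscle and erythroid markers differed between the hearts. The 18 skeletal muscle markers summed to 56.5 and 12.3 TPM and the 11 erythroid markers to 17286 and 226 TPM. The 8 endothelial markers summed to 519 and 529 TPM and the 8 fibroblast markers to 1805 and 2178 TPM. The 12 smooth muscle and pericyte markers summed to 890 and 835 TPM. No endothelial, fibroblast, smooth muscle or pericyte marker was called between the hearts, by the rule given below with that comparison. That rule called only 0.86% of the 13598 genes tested, so the lack of calls does not show equal levels. All 8 fibroblast markers were higher in replicate 2. In bulk tissue, fewer cells of a type and less RNA per cell cannot be told apart.

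Of the tropomyosin exons, pairs at the same place in the protein exclude each other, and muscle and other tropomyosins differ in their combination of choices. In Tpm1, exon 2a is the smooth muscle choice and 2b the choice of other long forms. At the sixth exon, 6b is in the striated muscle forms of Tpm1 and Tpm2. At the end of the protein, 9a is in the striated muscle forms and 9d in those of smooth muscle and other cells. Neither 6b nor 9a marks muscle by itself. Exon 6b is also in Tpm1 models with the 9d end, such as Tpm1-216, and the 9a end is also in the short form Tpm3-202. The sequences below, read from the GENCODE M21 transcripts on mm10 and written 5′ to 3′ on the strand of the gene, are shown because the levels of the transcripts turn on them. Capitals mark the positions that differ between the members of a pair. In Tpm4, which has a single exon at this place, capitals mark the positions that differ from Tpm1 exon 6b. Only the coding part of exon 9d is given, and its last base has no partner in 9a.
Tpm1 exon 2a, chr9:67048124-67048249, minus strand: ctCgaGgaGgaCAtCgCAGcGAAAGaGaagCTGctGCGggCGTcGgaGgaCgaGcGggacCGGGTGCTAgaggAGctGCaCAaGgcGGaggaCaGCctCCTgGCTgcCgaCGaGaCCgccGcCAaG
Tpm1 exon 2b, chr9:67047786-67047911, minus strand: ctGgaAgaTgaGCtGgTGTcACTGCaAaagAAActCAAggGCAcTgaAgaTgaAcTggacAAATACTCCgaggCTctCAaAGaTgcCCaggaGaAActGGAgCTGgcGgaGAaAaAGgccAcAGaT
Tpm1 exon 6a, chr9:67032466-67032541, minus strand: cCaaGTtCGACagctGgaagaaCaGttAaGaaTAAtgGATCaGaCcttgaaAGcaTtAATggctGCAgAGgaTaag
Tpm1 exon 6b, chr9:67031951-67032026, minus strand: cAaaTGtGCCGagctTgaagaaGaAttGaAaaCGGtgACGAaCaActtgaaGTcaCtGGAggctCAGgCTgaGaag
Tpm2 exon 6a, chr4:43519003-43519078, minus strand: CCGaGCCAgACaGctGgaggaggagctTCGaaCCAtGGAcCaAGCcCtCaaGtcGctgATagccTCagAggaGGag
Tpm2 exon 6b, chr4:43518644-43518719, minus strand: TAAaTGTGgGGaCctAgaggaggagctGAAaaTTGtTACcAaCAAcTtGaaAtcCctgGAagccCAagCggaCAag
Tpm4 exon 6, chr8:72146452-72146527, plus strand: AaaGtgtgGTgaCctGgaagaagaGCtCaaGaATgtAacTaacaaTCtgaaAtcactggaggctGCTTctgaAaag
Tpm1 exon 9a, chr9:67029664-67029742, minus strand: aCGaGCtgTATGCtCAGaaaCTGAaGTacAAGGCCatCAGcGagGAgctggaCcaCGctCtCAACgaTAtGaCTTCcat
Tpm1 exon 9d, chr9:67023362-67023441, minus strand: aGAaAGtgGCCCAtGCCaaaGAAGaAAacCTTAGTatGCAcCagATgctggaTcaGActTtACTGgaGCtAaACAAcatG

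Within a gene the alternative exons differed at many positions. Exons 2a and 2b of Tpm1 differed at 66 of 126 positions, 6a and 6b at 33 of 76, and 9a and 9d at 45 of 79. Between 6a and 6b, identity was 56.6% in Tpm1, 53.9% in Tpm2 and 51.3% in Tpm3. The same choice was more alike across genes than the pair was within a gene: exon 6b was 73.7% to 76.3% identical between Tpm1, Tpm2 and Tpm3, and exon 6a 61.8% to 65.8%. The single exon 6 of Tpm4 was 71.1% to 73.7% identical to the 6b exons and 43.4% to 55.3% identical to the 6a exons. The Tpm4 transcript is a short form, and short forms with exon 6b are also annotated in Tpm1 and Tpm3. The exons that the models share, exons 3, 4, 5, 7 and 8, had the same lengths in all 4 genes (134, 118, 71, 63 and 70 nt). Over those 456 nt the genes were 77.0% (Tpm3 and Tpm4) to 81.1% (Tpm1 and Tpm3) identical.

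Tpm1, the alpha-tropomyosin of cardiac muscle, was by far the leading tropomyosin of these hearts. The gene lies at chr9:67022590-67049406 on the minus strand. It stood at 3222 TPM in replicate 1 and 3259 TPM in replicate 2 (3240 ± 26.0, SD, n = 2), from 100919 and 89050 expected counts. Among 22015 nuclear protein-coding genes it ranked 8 and 6. Tpm1 held 92.9% ± 0.0463 of the summed tropomyosin TPM, and its level was 25.0-fold ± 0.876 that of Tpm4, the next tropomyosin. The second quantification gave 4239 and 4227 TPM, a share of 93.2% ± 0.0326.

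The troponin genes, thin filament partners of tropomyosin, stood in the same range of levels. Tnnt2, the cardiac troponin that binds tropomyosin, stood at 2963 and 3239 TPM, so that Tpm1 was 1.09 and 1.01 times its level. Tnnc1, the calcium-binding troponin of heart and slow muscle, stood at 2346 and 2393 TPM. The inhibitory troponins Tnni3 (cardiac) and Tnni1 (slow skeletal, the form of the fetal heart) stood at 2080 and 896 TPM in replicate 1 and at 2214 and 912 TPM in replicate 2. Cardiac actin Actc1 and skeletal actin Acta1 together were 2.50 and 2.27 times the TPM of Tpm1. These ratios depended on the quantification. Tpm1 over Tnnt2 was 1.05 ± 0.0574 in the first and 0.911 ± 0.0462 in the second, on either side of equality. Tpm1 over the sum of Tnni3 and Tnni1 was 1.06 ± 0.0284 in the first and 0.761 ± 0.00334 in the second, where Tnni3 stood at 3585 and 3598 TPM and Tnni1 at 1971 and 1977 TPM. Tpm1 over Tnnc1 was 1.37 and 1.62 on average.

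**Figure D1:**
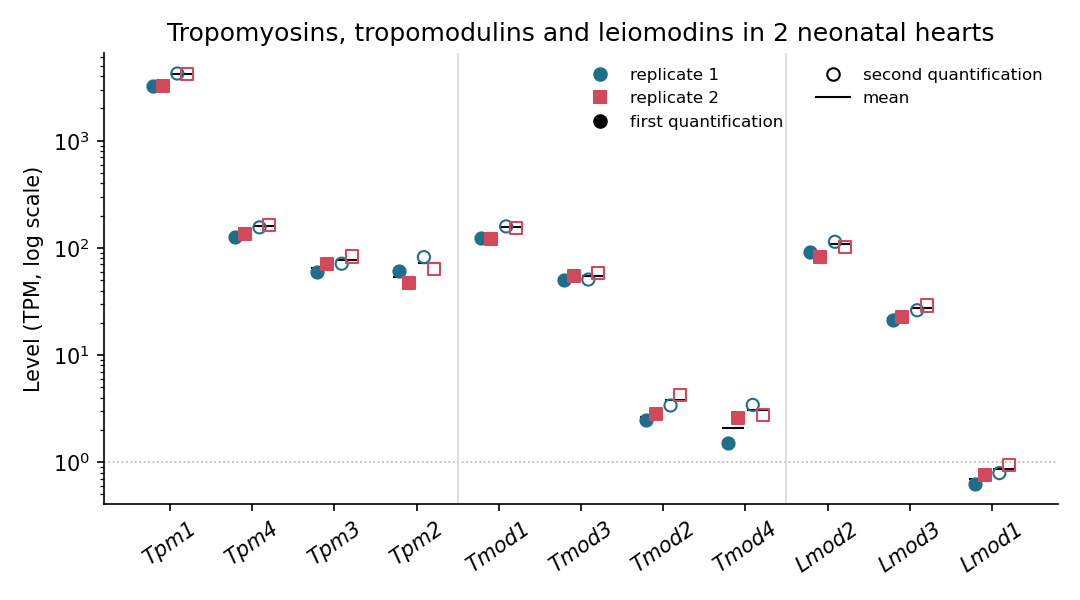
Level of each tropomyosin, tropomodulin and leiomodin in TPM on a log axis, with circles for replicate 1, squares for replicate 2, filled symbols for the first and open symbols for the second quantification, and a line at each mean; the dotted line is 1 TPM. Tpm1 at 3222 and 3259 TPM stands above all others, and Tmod2, with the non-members Tmod4 and Lmod1, lies at the bottom.

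Nearly all coding Tpm1 RNA was assigned to long forms, and the striated muscle form led in both quantifications, with a smaller share in the second. Of 21 annotated Tpm1 transcripts, 16 carry a full coding sequence. Tpm1-205, the striated muscle alpha-tropomyosin of 284 residues built from exons 1a, 2b, 6b and 9a, stood at 3020 and 3029 TPM, and at 2932 and 2871 TPM in the second quantification. Long forms held 99.2% ± 0.117 of the coding Tpm1 TPM in the first quantification and 99.8% ± 0.0483 in the second. Among long forms, the smooth muscle exon 2a was in 0.627% of the TPM in the first and 0.218% in the second. Its one transcript above 1 TPM, Tpm1-215, stood at 19.0 and 20.1 TPM, and at 7.58 and 9.87 TPM in the second quantification.

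The 2 quantifications parted over the sixth exon and the end of Tpm1. Exon 6b was in 99.8% of coding Tpm1 TPM in the first quantification and in 90.9% in the second. The end with 9a spliced on to 9b was in 96.5% and 79.3%, and the 9d end in 1.43% and 16.9%. A few transcripts carry this difference. Tpm1-216, a long form with exon 6b and the 9d end, stood at 22.5 and 21.9 TPM in the first quantification but at 681 and 700 TPM in the second. Tpm1-203, the striated form with exon 6a in place of 6b, was listed at 0 in both hearts in the first and at 369 and 384 TPM in the second. Tpm1-207, which joins exon 8 directly to 9b, stood at 25.9 and 16.1 TPM in the first and at 122 and 108 TPM in the second. In each case the quantifications differed by more than the hearts did. The annotated first exons of these models also differ, at 195 nt in Tpm1-205, 388 nt in Tpm1-216, 246 nt in Tpm1-203 and 125 nt in Tpm1-207. The part of those ends in the difference was not tested.

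**Figure D2:**
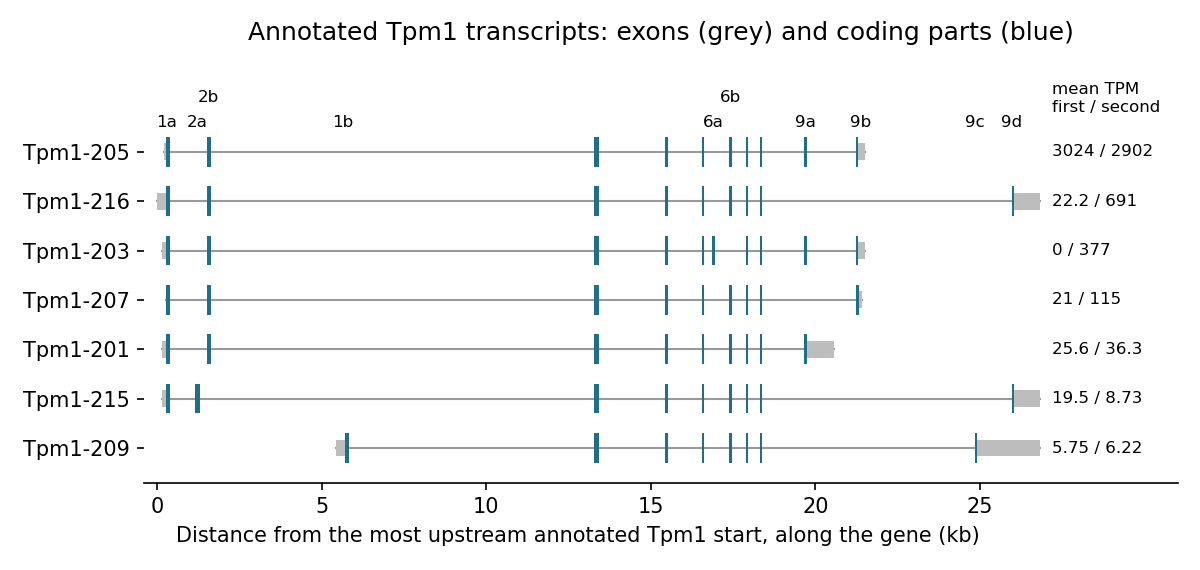
Exon maps of 7 annotated Tpm1 transcripts along the gene, drawn to scale in kb from the most upstream annotated start, with exons in grey, coding parts in blue, the alternative exons named above, and the mean TPM of each transcript in the first and second quantification at the right. Tpm1-205 leads in both, and Tpm1-216 and Tpm1-203 differ most between the quantifications (22.2 against 691 TPM, and 0 against 377 TPM).

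Tpm4, Tpm3 and Tpm2 were each a small part of the tropomyosin RNA. Tpm4, known as a tropomyosin of the nonmuscle cytoskeleton, lies at chr8:72134975-72153142 on the plus strand and stood at 126 and 134 TPM (130 ± 5.59), which was 3.72% ± 0.128 of the tropomyosin TPM. Its single full coding model, the short form Tpm4-201 of 248 residues, stood at 124 and 134 TPM. It is the main source of short tropomyosin RNA in these hearts: it gave 65.1% ± 0.298 of the short-form TPM over the 4 genes, against 21.9% from Tpm3 and 13.1% from Tpm1. In the second quantification the Tpm4 share was 70.8% and the Tpm1 share 3.28%.

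Tpm3, whose long form is the tropomyosin of slow skeletal muscle and whose short forms are cytoskeletal, lies at chr3:90072649-90100902 on the plus strand. It stood at 59.4 and 70.0 TPM (64.7 ± 7.52). The higher TPM of replicate 2 was not matched by its counts, which were 2967.69 and 2753.5, with a log2 ratio after scaling for depth of 0.00. Transcripts annotated as retained introns, many of them short, held 21.2% of the gene TPM in replicate 1 and 30.8% in replicate 2, but 10.04% and 14.36% in the second quantification. Of these, Tpm3-207 stood at 3.66 and 4.02 TPM. Short forms made up 95.9% ± 0.741 of the coding Tpm3 TPM, and 91.2% in the second quantification. The leading one, Tpm3-201 with exon 6a and the 9d end, stood at 37.7 and 34.8 TPM. Tpm3-202, a short form with exon 6b and the 9a end, stood at 5.21 and 9.12 TPM. The incomplete Tpm3-214 stood at 0.28 TPM in replicate 1 and was listed at 0 in replicate 2, where the second quantification gave 6.19 TPM. The muscle form Tpm3-205, with exons 1a, 2b and 6b, stood at 2.10 and 1.65 TPM, and at 5.83 and 5.43 TPM in the second quantification. Tpm3 and Tpm1 were thus of opposite make-up, Tpm3 nearly all short form and Tpm1 nearly all long form, in both hearts and both quantifications.

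Tpm2, beta-tropomyosin, known for skeletal and smooth muscle, lies at chr4:43514711-43523765 on the minus strand. It stood at 60.3 and 47.0 TPM (53.7 ± 9.38), with 2497 and 1613 expected counts. Every full coding Tpm2 model is a long form. Its RNA was split between a transcript with the striated muscle exons 6b and 9a, Tpm2-202, and a transcript with exons 6a and 9d, Tpm2-203, the choice of smooth muscle and nonmuscle cells. Tpm2-202 stood at 28.4 and 18.1 TPM, and Tpm2-203 at 24.2 and 24.3 TPM. The noncoding Tpm2-205 stood at 3.60 and 1.97 TPM. Exon 6b was thus in 53.9% of the coding Tpm2 TPM in replicate 1 and in 42.7% in replicate 2. The second quantification gave 43.6% and 35.7%, so the larger of the 2 transcripts in replicate 1 depended on the quantification, while the order of the hearts did not.

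**Figure D3:**
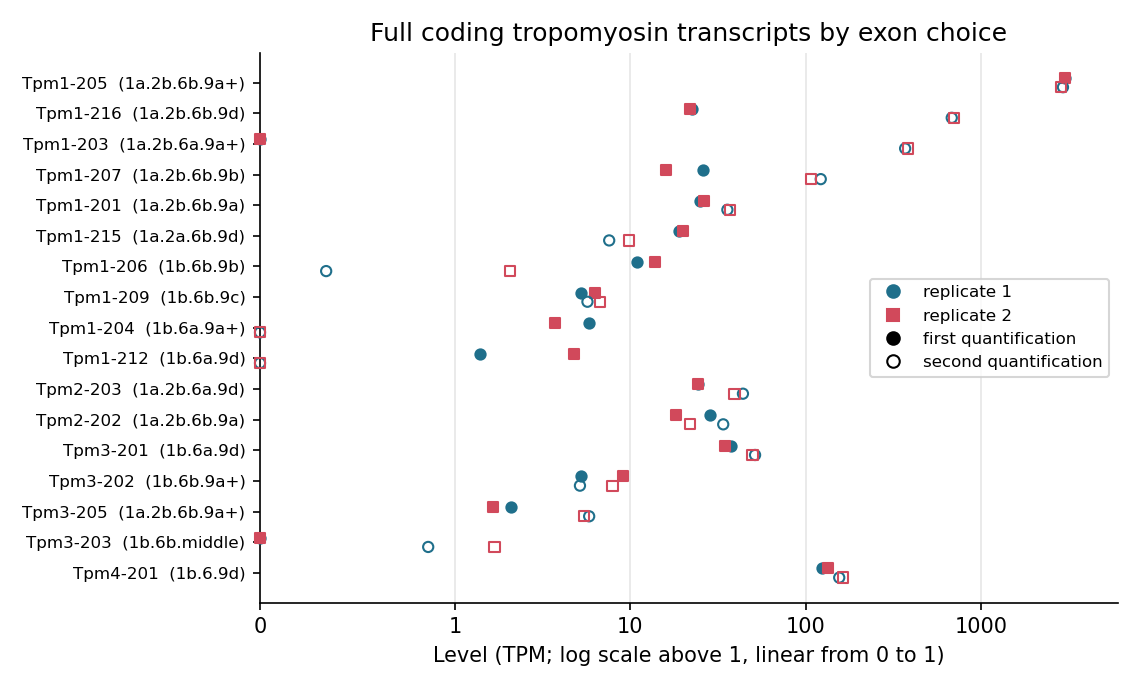
Level of each full coding tropomyosin transcript that reached 1 TPM in any library or quantification, with its first exon, exon 2 where present, exon 6 and end in brackets (9a+ is 9a spliced to a further exon); the axis is logarithmic above 1 TPM and linear below, circles are replicate 1, squares replicate 2, filled the first and open the second quantification. Tpm1-205 lies between 2871 and 3029 TPM by both, while Tpm2-202 and Tpm2-203 lie between 18.1 and 43.9 TPM.

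Summed over the 4 genes, long forms held 3167 and 3157 TPM and short forms 191 and 206 TPM. Long forms were thus 94.1% ± 0.319 of the coding tropomyosin TPM, and 94.9% ± 0.235 in the second quantification. Of the long-form TPM outside Tpm1, most was Tpm2, at 52.6 and 42.4 TPM, against 2.10 and 1.65 TPM for Tpm3.

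**Figure D4:**
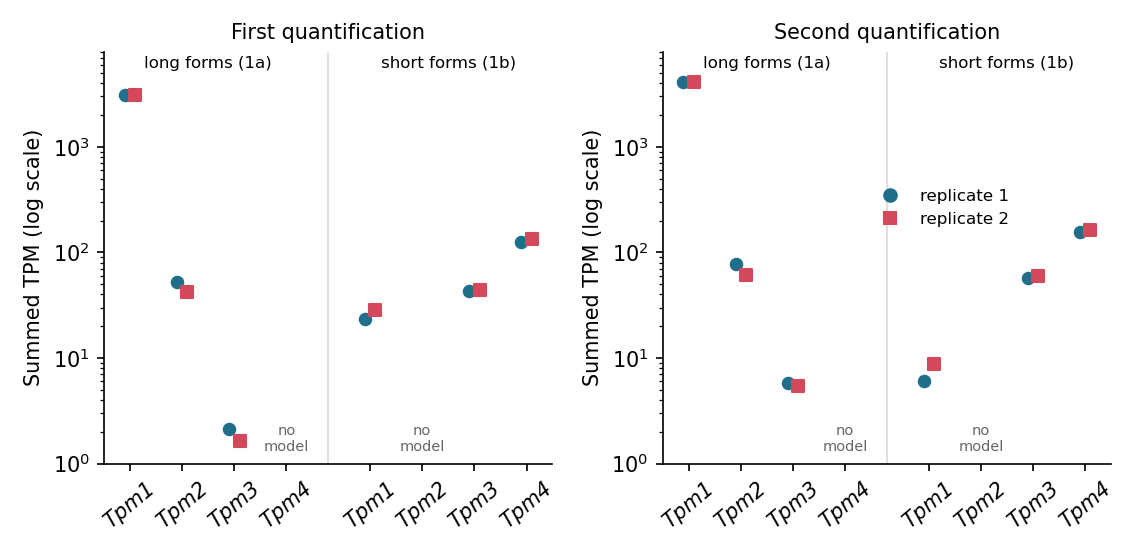
Summed TPM of long (exon 1a) and short (exon 1b) full coding transcripts of each tropomyosin gene on a log axis, in the first (left) and second (right) quantification, with circles for replicate 1 and squares for replicate 2; "no model" marks a class for which the annotation holds no full coding transcript. Tpm1 leads the long forms and Tpm4, at 124 and 134 TPM in the first quantification, leads the short forms.

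At the pointed end, Tmod1 and Lmod2 led. Tmod1, the capping tropomodulin of cardiac muscle and of the red cell membrane skeleton, lies at chr4:46038935-46116032 on the plus strand and stood at 123 and 121 TPM (122 ± 1.82). It was 42.2% ± 0.209 of the summed TPM of the tropomodulin and leiomodin genes, with Tmod4 and Lmod1 counted in. The full-length transcript Tmod1-201, of 359 residues, stood at 120 and 115 TPM. Of the 11 erythroid markers 7 were tested between the hearts and 6 were called lower in replicate 2, by the rule given with that comparison, while Tmod1 was not called. The part of red cell RNA in the Tmod1 level was not tested. The last exon region of Tmod1 overlaps Tstd2 on the other strand, which held 546 and 513 expected counts, against 10401 and 8785 for Tmod1. Whether the counting used strand is not given in the sources used here.

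Tmod3, the tropomodulin found in most cell types, lies at chr9:75497707-75559657 on the minus strand and stood at 49.7 and 54.1 TPM (51.9 ± 3.13). Tmod1 was 2.48 and 2.23 times its level. Much of the Tmod3 TPM rested on a short, incomplete model: Tmod3-202, of 444 nt and with no complete coding sequence, stood at 18.9 and 21.7 TPM from 183.01 and 183.46 counts. The full-length Tmod3-201, of 352 residues, stood at 23.9 and 26.3 TPM from 2389.6 and 2303.97 counts, and another short model, Tmod3-205, at 4.90 and 3.67 TPM. By full-length transcripts alone, Tmod1 was therefore further above Tmod3 than the gene values show.

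Tmod2, the tropomodulin of neurons, lies 5963 nt from Tmod3, at chr9:75565621-75611325 on the minus strand. It stood at 2.49 and 2.84 TPM (2.67 ± 0.247) from 437 and 341 counts, so Tmod3 was 19.9 and 19.0 times its level. Its RNA had no steady leading transcript by TPM: Tmod2-202 stood at 1.41 and 1.18 TPM from 386.46 and 282.56 counts, and the shorter Tmod2-203 at 0.33 and 1.34 TPM from 13.28 and 47.08 counts. In the second quantification Tmod2-202 led in both hearts, at 1.98 and 1.65 TPM, and the incomplete Tmod2-204 came next at 0.802 and 1.25 TPM, although it was listed at 0 in the first. Tmod2-206, Tmod2-207 and Tmod2-208 were each listed at 0 in 1 heart in the first quantification and reached at most 0.44 TPM in the other. The tropomodulin of skeletal muscle, Tmod4, which is not among the 9 genes, was as low, at 1.52 and 2.61 TPM from 34 and 31 counts. Of the 4 tropomodulins, the cardiac and the widely expressed one thus made up nearly all of the RNA.

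Lmod2, the cardiac leiomodin that lengthens thin filaments, lies at chr6:24597762-24605414 on the plus strand and stood at 91.9 and 82.8 TPM (87.3 ± 6.41). It held 30.3% ± 1.92 of the pointed-end TPM. Tmod1 was 1.34 and 1.46 times the level of Lmod2, a capping gene over a nucleating and elongating one, and their ranges did not overlap in either quantification. Lmod3, the leiomodin best known from skeletal muscle and from nemaline myopathy, lies at chr6:97238534-97252759 on the minus strand and stood at 21.3 and 22.8 TPM (22.0 ± 1.11). Lmod2 was 4.32 and 3.63 times its level. Each has 1 annotated transcript, Lmod2-201 and Lmod3-201, coding for 550 and 571 residues. Lmod1, the smooth muscle leiomodin and no member, stood at 0.63 and 0.76 TPM from 68 and 72 counts. The 12 smooth muscle and pericyte markers were all above 1 TPM and summed to 890 and 835 TPM. Acta2 gave 551 and 465 TPM of this sum. Cnn1 stood at 17.4 and 11.6 TPM, Myh11 at 6.20 and 9.35 TPM and Actg2 at 4.59 and 5.07 TPM.

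The order of the 9 genes by mean TPM was Tpm1, Tpm4, Tmod1, Lmod2, Tpm3, Tpm2, Tmod3, Lmod3 and Tmod2. Neighbours were taken as apart where their means differed by more than the sum of their SDs and their ranges did not overlap. By that measure 6 of the 8 neighbouring pairs were apart. Tpm3 and Tpm2, and Tpm2 and Tmod3, were not. Tpm4 and Tmod1 were only just apart, with a difference of 7.86 TPM against summed SDs of 7.40 TPM, and in the second quantification they overlapped. Together the tropomyosins stood at 3468 and 3509 TPM, 11.9 and 12.2 times the summed level of the tropomodulins and leiomodins, at 291 and 287 TPM.

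At the opposite, barbed end of the filament sits the capping protein CapZ. Its beta subunit gene Capzb stood at 187 and 193 TPM, which was 0.793 and 0.853 times the summed level of Tmod1, Lmod2 and Lmod3. In the second quantification the ratio was 0.688 and 0.717. All 16 genes of the list of actin filament end and assembly partners, which holds CapZ subunits, cofilins, formins and other assembly factors, were above 1 TPM in both hearts, with a sum of 2382 and 2410 TPM.

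The hearts were compared on expected counts scaled by TMM, a factor for each library that assumes that most genes do not differ. A gene was called where its ratio was at least 2-fold, its mean TPM at least 1, its summed count at least 20 and the exact 95% Clopper-Pearson interval of its ratio excluded equality. With 1 library on each side this compares the libraries, has no replicate check and gives no p-value. None of the 9 members was called, where the rule called 0.86% of the 13598 genes tested. The members' log2 ratios of replicate 2 over replicate 1 had a median of −0.07, against −0.00 over all genes tested. Of the 9, 5 were below 0 and 4 above. Scaling by the spike-ins moved the median of all genes by 0.13 and turned Tpm1 from −0.07 to 0.06, so no direction is given for it. Tpm3 (0.00) and Tpm4 (0.02) also changed sign under other settings.

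Tpm2 showed the largest of the members' ratios, at −0.52 (interval −0.61 to −0.43), or −0.53 in the second quantification and −0.39 with spike-in scaling. Its size was larger than that of 96.2% of the genes tested. It did not reach 1.5-fold, a bound that 1.3% of genes passed in the lower direction. The difference lay mostly in the striated transcript: Tpm2-202 had 1591.16 and 889.74 counts and a log2 ratio of −0.74 (−0.86 to −0.62), while Tpm2-203 had 724.87 and 634.75 counts and a ratio of −0.10 (−0.25 to 0.06). These transcripts were singled out after their values were seen. Single transcripts vary more than genes, and 8.27% of the 32090 transcripts tested were at least 1.5-fold lower in replicate 2 as Tpm2-202 was.

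Skeletal muscle markers moved with that difference. All 7 skeletal markers that were tested had log2 ratios below 0, with a median of −2.76, and 6 were called lower. The fetal myosin Myh8 fell from 7.78 to 1.20 TPM and the fast troponin Tnnc2 from 4.80 to 0.07 TPM, while the adult fast myosin Myh4, too low to be tested, had 57.23 and 0 counts. Myod1 and Pax7 had 1 and 0 counts each, too few to compare the hearts. In the list of 8 thin filament partners, skeletal actin Acta1 fell from 263 to 125 TPM (log2 ratio −1.15) and the counts of nebulin, Neb, fell from 829 to 366 (−1.07), at 2.90 and 2.09 TPM. No other gene of that list was called. The part of skeletal muscle RNA in the Tpm2 difference was not tested. Of the other members known from skeletal muscle, Lmod3 stood at a ratio of 0.02 (−0.10 to 0.13). The muscle form of Tpm3, Tpm3-205, stood at −0.44 (−1.05 to 0.15), an interval that includes equality. None of the 12 smooth muscle and pericyte markers was called, as Tpm2 was not, and their median ratio was 0.03. Of these markers, 4 were below 0 and 8 above. Cnn1 stood at −0.52 (−0.72 to −0.33) and Acta2 at −0.34 (−0.37 to −0.31), while Myh11 stood at 0.52 (0.40 to 0.64). The part of smooth muscle RNA in the Tpm2 difference was not tested.

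Lmod2 stood at a log2 ratio of −0.23 (−0.30 to −0.17), Tmod2 at −0.25 (−0.46 to −0.04) and Tmod1 at −0.13 (−0.18 to −0.09). With spike-in scaling these were −0.10, −0.11 and −0.00. The intervals cover counting error only. With TMM scaling the ratio of Tmod2 was larger in size than that of 85.4% of the genes tested, and its TPM (2.49 and 2.84) went the other way from its counts. Beside Tmod2, the neuronal tubulin Tubb3 had 54 and 34 counts, and the part of nerve RNA in the Tmod2 value was not tested. Tmod3 stood at 0.04 and Tpm4 at 0.02, and with spike-in scaling at 0.17 and 0.15, beside 0.13 for Tpm3 and 0.15 for Lmod3. Which members lay nearest to an equal level thus depended on the scaling. All 8 fibroblast markers had ratios above 0, with a median of 0.17 and none called.

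**Figure D5:**
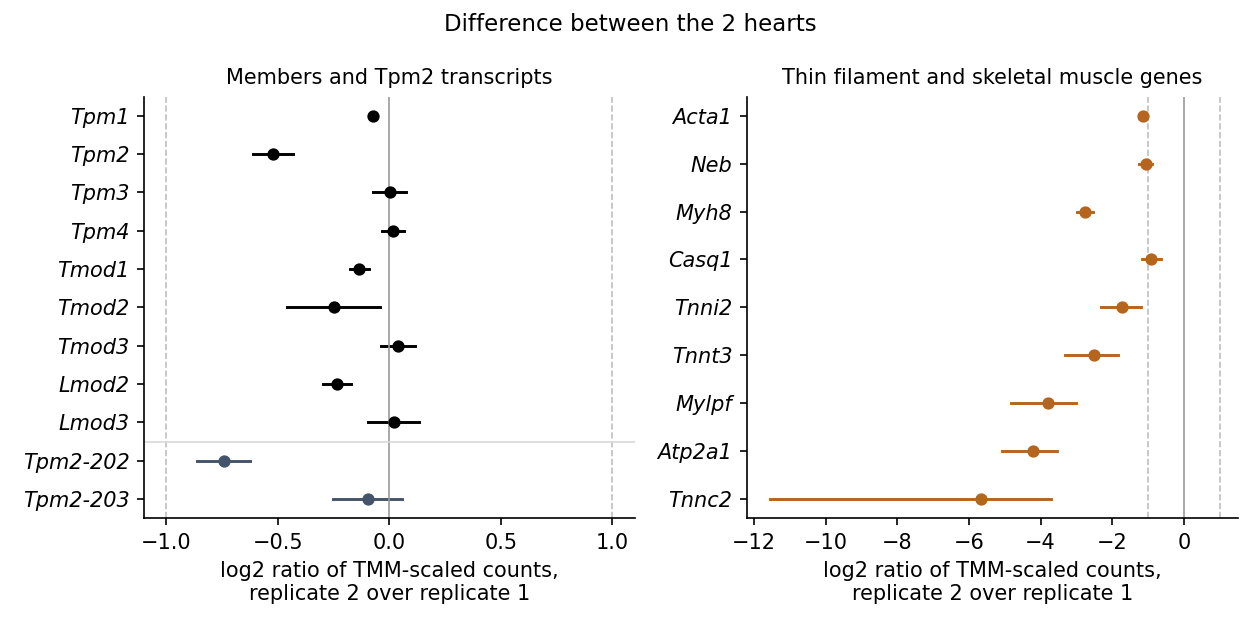
Log2 ratio of TMM-scaled expected counts, replicate 2 over replicate 1, with exact 95% counting intervals, for the members and the main Tpm2 transcripts (left) and for Acta1, Neb and the skeletal muscle markers tested (right, on a wider axis); dashed lines mark 2-fold. All 9 members lie inside the dashed lines, with Tpm2 at −0.52 the farthest from 0, while Tnnc2 lies at −5.65.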

How the data were processed

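Heart RNA of 2 mice was analysed as 1 group of 2. Per the labels, 300 ng of RNA went into each library, with ERCC spike-ins added. The authors deposited 3 tables per library: a gene table and a transcript table laid out as RSEM writes them (the first quantification), and a transcript table laid out as by kallisto (the second). All rest on mm10 and M21, per the file headers and notes. Which programs and versions made them is not given in the sources used here. Deposited values are expected counts, TPM, posterior mean TPM (used as an alternative) and posterior SDs of counts. Reads of both parental alleles were quantified on 1 reference, and its effect was not tested.

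The members, gene lists and comparisons were chosen with earlier results of these data known. All 9 members are named, with transcripts holding at least 5% of the gene TPM in either library and quantification, other full coding tropomyosin transcripts that an exon share rests on, Tmod4 and Lmod1, and list genes a result turns on. The summary of 1 marker list is not reported here. Exon choices were read from GENCODE M21 models with complete coding sequences, and shares are of their summed TPM. Second-quantification values were summed per gene. Between the hearts, rounded expected counts were scaled with the TMM factors of edgeR 4.0.16 under R 4.3.3, with 0.5 as the prior count. The rule for calling genes between the hearts was tested on simulated counts that held counting error only. The TPM filter was left out there, and the changed genes had folds beyond the 2-fold bound. The rule for neighbours in the order of levels was not tested in this way. With 36175363 and 32509660 expected counts in all, a count of 0 allows 3 counts, or 0.0829 and 0.0923 CPM. Counting error is all that the intervals and this floor cover. Alternatives were the second quantification, posterior means, CPM, TPM over nuclear protein-coding genes, DESeq2 1.42.0 size factors, spike-in and total-count scaling, other filters, folds and prior counts, and each heart alone. Scripts used numpy 2.4.6, scipy 1.17.1 and pandas 2.3.3 in Python 3.11.15.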

Additional observations from a re-analysis of the deposited data

How the results depend on the processing

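The share of tropomyosin TPM held by Tpm1 was 93.2% in the second quantification, 92.8% with posterior mean TPM and 89.0% with CPM, which does not allow for length, and 92.9% in each heart alone. The pointed-end share of Lmod2 was 23.4% with CPM and 28.9% to 31.6% in single hearts. The long-form share of Tpm1 was 99.8% in the second quantification, 96.1% with all transcripts in the denominator, and 99.1% to 99.3% in single hearts. Of 8 neighbouring pairs, 5 (second quantification and posterior means) to 7 (CPM, where Tmod1 stood above Tpm4) were apart. No member was called between the hearts under any of the 8 alternatives, where Tmod2 was not tested at a mean TPM of at least 5; this comparison cannot leave out a heart. The genes called numbered 117 as reported, 148 in the second quantification, 311 at 1.5-fold, 584 without the filter and 36 at a mean TPM of at least 5; the last 3 differ by construction of the rule. No paired analysis was possible because there is 1 group. The causes of the differences between quantifications were not tested. Tmod2, Tmod4 and Lmod1 rest on the fewest counts.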

Other observations

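Tpm3 has copies elsewhere in the genome, looked at after the values were seen. Tpm3-rs7, at chr14:113314608-113316754 on the plus strand and annotated as protein-coding, held 782.31 and 707.5 expected counts, or 13.6 and 14.1 TPM, and 614.659 and 573.734 counts in the second quantification. The posterior SD of its count was 30.4 in replicate 1, and the posterior SD of the Tpm3 count was 1.02% and 0.960% of that count. Reads can be shared between the copy and Tpm3, so both single values are uncertain. The copy Tpm3-rs2 was listed at 0 in both hearts.

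Of the 67 annotated transcripts of the 9 members, 34 were tested between the hearts and 4 were at least 2-fold apart, where 9% of all transcripts tested were. These 4 are Tpm1-212, Tpm2-206, Tpm3-209 and Tpm3-212, all minor transcripts of their gene. Tpm3-209 and Tpm3-212 are annotated as retained introns, at 2.82 and 6.25 TPM and at 1.48 and 4.67 TPM. In the second quantification Tpm3-209 was listed at 0 in both hearts, and Tpm3-212 at 0 and 1.15 TPM. Tpm1-212, a short form, stood at 1.39 and 4.75 TPM and was listed at 0 in the second quantification, and Tpm2-206, an incomplete model, stood at 4.09 and 1.92 TPM and was also listed at 0 there.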
